A study of Mus musculus with 9 samples.

Results

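Brown adipose cultures given the lipid lysophosphatidic acid (LPA) were set directly against cultures given HA155, which blocks the enzyme that makes LPA. The samples were chosen by title, and they make up 6 of the 9 arrays of the series: 3 cultures with 1-oleoyl LPA at 5 µM (cultures 7, 8 and 9 by their subject numbers) and 3 with HA155 at 2.5 µM (cultures 4, 5 and 6). The other 3 arrays are the vehicle controls (DMSO, cultures 1, 2 and 3), which place each gene between the 2 treatments. All cultures came from interscapular brown fat of male C57BL/6 mice aged 5 weeks, from a fraction enriched in precursor cells. All received insulin at 50 nM from day 1, 100 nM from day 5 and 200 nM from day 7, and were collected at about day 9. The sources place the compounds both during differentiation and in cultures already at day 9, which leaves unclear how long the cells were exposed. With 3 separate cultures per condition, a p-value here weighs a difference against the spread between cultures, estimated over all 9 arrays. The design asks which genes autotaxin and LPA signalling regulate. Of 19858 genes with a probe set of their own, 13335 were bright enough to be tested.

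Autotaxin is a secreted enzyme that cuts choline from lysophospholipids and leaves LPA, which acts on a family of G protein-coupled receptors at the cell surface. These receptors signal through ERK kinases, through the actin skeleton, and so on to the transcription factors SRF, YAP and TAZ, all of them linked to growth and to the contractile, matrix-making state of connective-tissue cells. Brown fat cells arise from such precursors under the control of Pparg and the C/EBP factors, and fill with lipid droplets and with mitochondria that burn fuel to make heat. An inhibitor of autotaxin is meant to lower the LPA that cells make for themselves, and added LPA raises the supply. The comparison is thus set up to span the low and the high end of the pathway, though the arrays do not measure LPA. It changes both at once, and for each gene the difference between LPA and HA155 is by arithmetic the difference of each from the vehicle, one minus the other.

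Values are levels on the log2 scale of the deposited intensity, and differences are LPA minus HA155 on that scale, so that 1 is a doubling. A gene was called, and is said to have risen or fallen, where limma's adjusted p was below 0.05. Array values are listed in the order of the culture numbers. The median standard error of a difference was 0.0763, and the small number of arrays limits the precision. The LPA cultures varied most among themselves, with a median SD per gene of 0.107 against 0.054 with HA155 and 0.0743 in the controls. Principal component 1 (66.7% of the variance) put the LPA cultures at 19.57, 28.75 and 20.78, the controls between -10.33 and -7.28 and the HA155 cultures between -15.51 and -11.34. LPA culture 8 lay farthest out and had the lowest weight of the 9 arrays in a weighted fit (0.253). The labels hold neither batches nor scan dates, and any that run along with the treatments cannot be told apart from them. As the RNA came from whole cultures, fewer cells of a type and less RNA per cell cannot be told apart either.

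Of the 13335 genes tested, 3481 differed between LPA and HA155 (26.1%). Higher with LPA were 1826 genes (13.7%) and lower 1655 (12.4%), and the arrays of the 2 groups did not overlap for 5157 genes (38.7%). The counts were alike in both directions, as was the median size of called genes (0.409 higher, -0.452 lower), but the largest changes were not. Among called genes, 55 were higher by at least 1 (0.412%) and 191 lower by at least 1 (1.43%), and 13 were lower by at least 2 (0.0975%) where no gene was higher by that much. Most of the calls were small: 3235 of the 3481 lay within 1 either way, with a median size of 0.425. The median difference over all genes tested was 0.01. Of the 191 large falls, 62 lay in the 6 lists of fat cell proteins, lipid synthesis, fatty acid oxidation, the tricarboxylic acid cycle, the respiratory chain and branched-chain amino acid breakdown, which together hold 207 genes tested, and 121 lay in no list examined here.

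**Figure D1:**
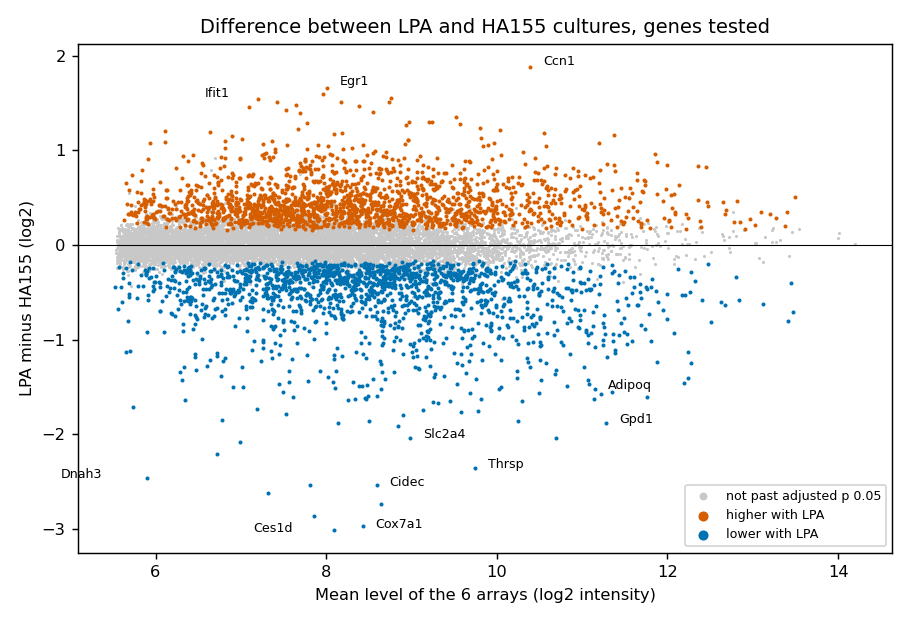
Difference between LPA and HA155 (log2, vertical axis) against the mean level of the 6 arrays (log2 intensity, horizontal axis), 1 point per gene for 13335 genes; orange and blue mark the 1826 genes called higher and the 1655 called lower with LPA, and grey the rest. The falls reach -3.01 (Ces1d) and the rises 1.88 (Ccn1).

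The largest falls were in genes of mature fat cells and of their mitochondria. Ces1d, a carboxylesterase that breaks down triglyceride, measured 9.53, 9.55 and 9.70 with HA155 and 6.58, 6.43 and 6.76 with LPA. Every LPA culture lay far below every HA155 culture, and the gene fell by 3.01 (SE 0.088, 8.03-fold, limma adjusted p = 7.59e-09). The neighbouring family member Ces1f fell by 2.61, from 8.63, 8.51 and 8.73 to 6.13, 5.68 and 6.23. The lowest of these LPA levels was close to the limit for testing, 5.59, so that the size is uncertain. Probe sets of such near-identical carboxylesterase genes may share signal. Cox7a1, the heart, muscle and brown fat form of a cytochrome oxidase subunit, measured 9.88, 9.86 and 9.98 with HA155 and 6.91, 6.99 and 6.93 with LPA. It had the smallest p of these genes, with a fall of 2.97 (SE 0.0562, 7.82-fold, limma adjusted p = 2.785e-10). Its 3 control arrays held 1 identical value, which lowers its estimated spread in the shared fit. Cox8b, the second oxidase subunit of that tissue type, fell by 2.86, from 9.17, 9.28 and 9.39 to 6.39, 6.28 and 6.60.

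Orm1, a secreted acute-phase protein, fell by 2.73, and Acvr1c, the activin receptor ALK7 that fat cells carry, by 2.53. Cidec, which coats and enlarges lipid droplets, measured 9.93, 9.82 and 9.81 with HA155 and 7.35, 7.24 and 7.39 with LPA, a fall of 2.53 (5.77-fold). Thrsp, which promotes the making of fatty acids, fell by 2.36, and Slc2a4, the glucose transporter that insulin brings to the surface, by 2.04. The acetyl-CoA maker Acss2 fell by 2.04, the fat cell protein Adig by 1.91 and the apolipoprotein Apoc1 by 1.88. For 3 of the 15 largest falls at least 1 LPA array lay under the limit for testing of 5.59, so that the size is uncertain. Dnah3, a dynein heavy chain, went from 7.14, 6.97 and 7.26 to 4.53, 4.31 and 5.16. Lctl, a Klotho-family protein, went from 7.83, 7.82 and 7.83 to 5.77, 5.59 and 5.50, and Pck1, the PEPCK enzyme that feeds glycerol synthesis in fat cells, from 7.88, 8.17 and 8.03 to 6.27, 6.12 and 5.45. Among all 15, no LPA culture reached the lowest HA155 culture, a separation that the naming rule required.

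Ccn1 led the rises. This secreted matrix-associated protein, a known target of YAP and SRF, measured 9.34, 9.58 and 9.43 with HA155 and 11.28, 11.37 and 11.34 with LPA. It rose by 1.88 (SE 0.0858, 3.68-fold, limma adjusted p = 1.156e-07), and its LPA cultures agreed to within an SD of 0.05. The early-response transcription factor Egr1 rose by 1.66, from 7.31, 7.16 and 7.08 to 8.73, 9.25 and 8.54, and the nuclear receptor Nr4a1 by 1.54, from 6.46, 6.38 and 6.44 to 8.24, 7.83 and 7.83. Ace, the angiotensin-converting enzyme, measured 7.95, 8.00 and 7.98 with HA155 and 9.24, 9.71 and 9.51 with LPA, a rise of 1.51. The matrix proteins Egfl6 (1.59), Abi3bp (1.52) and Mamdc2 (1.43), the peptidase Anpep (1.55), the potassium channel subunit Kcne4 (1.47), Plac8 (1.46), Wfdc17 (1.41) and Ahnak2 (1.35) rose too. The precursor gene of the smooth muscle microRNA miR-145 (Mir145a) rose by 1.48 and the interferon-stimulated Ifit1 by 1.51. For Vaultrc5, a vault RNA gene, the size rested largely on 1 culture: it measured 7.51, 9.74 and 7.93 with LPA, and its rise of 1.40 was 0.73 without LPA culture 8, still called. Its limma adjusted p of 0.0302 ran from 0.000856 to 0.0878 over the alternative fits, and the call was lost without any 1 of the HA155 cultures. In Anpep, too, culture 8 stood above the others, at 10.19 against 9.09 and 9.34.

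**Figure D2:**
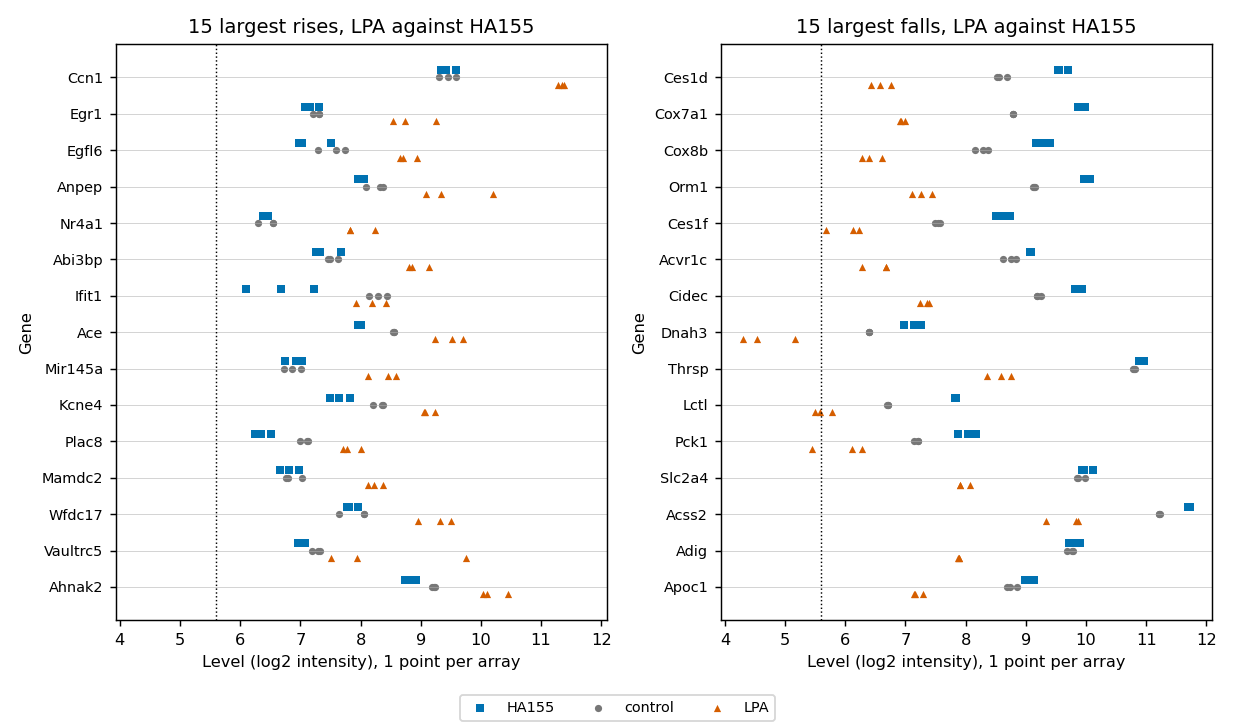
Levels (log2 intensity, horizontal axis) of the 15 genes with the largest rise (left) and the 15 with the largest fall (right) in LPA against HA155, with 1 symbol per array: squares for HA155, circles for control, triangles for LPA. The dotted line is the limit for testing, 5.59. In Ccn1 and Egr1 the controls sit with HA155, in Ifit1 with LPA, and in Ces1d and Cox7a1 between the 2.

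Fat cell proteins fell almost as a whole. Of 43 genes listed, 41 had a probe set and 40 were tested, of which 34 fell and 1 rose, with a median difference of -1.31 beside 0.01 over all genes. The adipokine Adipoq measured 11.90, 11.82 and 11.99 with HA155 and 10.46, 10.38 and 10.34 with LPA, a fall of 1.51 (SE 0.0673, limma adjusted p = 9.3e-08). Resistin (Retn) fell by 1.86. Leptin (Lep) went from 6.96, 7.07 and 7.02 to 5.73, 5.63 and 5.42, around the limit for testing, so that its fall of 1.42 is uncertain in size. The enzymes that release fatty acids from the droplet fell together: the triglyceride lipase Pnpla2 by 1.63, the hormone-sensitive lipase Lipe by 1.57 and the monoglyceride lipase Mgll by 1.35. The droplet coat proteins Plin1, Plin4 and Plin2 fell by 1.18, 1.39 and 0.95, whereas Plin5 measured -0.14 and Plin3 0.14, neither called. The fatty acid carrier Fabp4, one of the brightest genes here, fell by only 0.82, from 12.90, 12.87 and 13.00 to 11.96, 12.35 and 12.01. Npr3, the clearance receptor for natriuretic peptides, was the member that rose, by 0.62.

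Lipid synthesis fell in 24 of 25 genes tested, with none higher and a median of -1.01. Glycerol phosphate dehydrogenase Gpd1 measured 12.27, 12.16 and 12.23 with HA155 and 10.48, 10.19 and 10.36 with LPA, a fall of 1.87. The carboxylases Acaca and Acacb, which make malonyl-CoA, fell by 1.48 and 1.61. Fatty acid synthase (Fasn) fell by 1.25, citrate lyase (Acly) by 1.01, and the acyltransferase Agpat2, which acts on LPA itself inside the cell, by 1.41. The elongase Elovl5 was the member not called, at -0.05. Fatty acid oxidation moved the same way: 23 of 26 genes fell and 1 rose, with a median of -0.99. The trifunctional protein subunit Hadhb fell by 1.32, from 11.34, 11.29 and 11.42 to 10.08, 9.87 and 10.16, and the dehydrogenases Acadl, Acadvl, Acadm and Acads by 1.28, 1.15, 1.15 and 1.14. Cpt1a, the liver-type gatekeeper of mitochondrial entry, rose by 0.30, from 8.70, 8.62 and 8.59 to 8.86, 8.97 and 8.98. Genes that make fat and genes that burn it thus stood lower in the same cultures.

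The tricarboxylic acid cycle and its entry points had 25 of 26 genes lower, with a median of -0.88. Pyruvate carboxylase (Pcx) fell by 1.57, isocitrate dehydrogenase subunit Idh3a by 1.29 and citrate synthase (Cs) by 1.01, from 12.35, 12.27 and 12.31 to 11.35, 11.11 and 11.45. Idh2 was the member not called, at -0.13. Breakdown of branched-chain amino acids, a fuel of brown fat, had 19 of 20 genes lower with a median of -0.83, led by Hibch (-1.34) and Aldh6a1 (-1.33).

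Nuclear genes of the respiratory chain fell in 69 of 77 cases and rose in none, with a median of -0.58. The complex I subunit Ndufa9 and the complex III subunit Uqcrc1 both fell by 1.06, the latter from 11.79, 11.76 and 11.78 to 10.80, 10.46 and 10.89. Cox7a1 and Cox8b stood apart from this range. The broadly expressed forms of the same subunits fell far less, Cox7a2 by 0.66 (1.58-fold) and Cox8a by 0.47 (1.38-fold). Cox7a2 measured 9.59, 9.59 and 9.74 with HA155 and 9.09, 9.01 and 8.84 with LPA, and Cox8a 11.21, 11.19 and 11.42 against 10.78, 10.87 and 10.77. Cox4i2 and Cox6a2, tissue-type forms of other oxidase subunits, measured 0.07 and 0.01 and were not called. Mitochondrial ribosomal proteins, which translate the subunits that mitochondria encode, fell in 56 of 77 cases and rose in none, but by less, with a median of -0.32 and the largest fall of 0.65 in Mrpl38. Cytosolic ribosomal proteins went the other way, with 32 of 60 higher, none lower and a median of 0.24. That count fell to 17 without HA155 culture 4 and to 20 without HA155 culture 6, with a median that stayed at 0.23 and 0.22. Multigene families such as these hold many near-identical pseudogenes, whose signal a probe set may pick up.

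**Figure D3:**
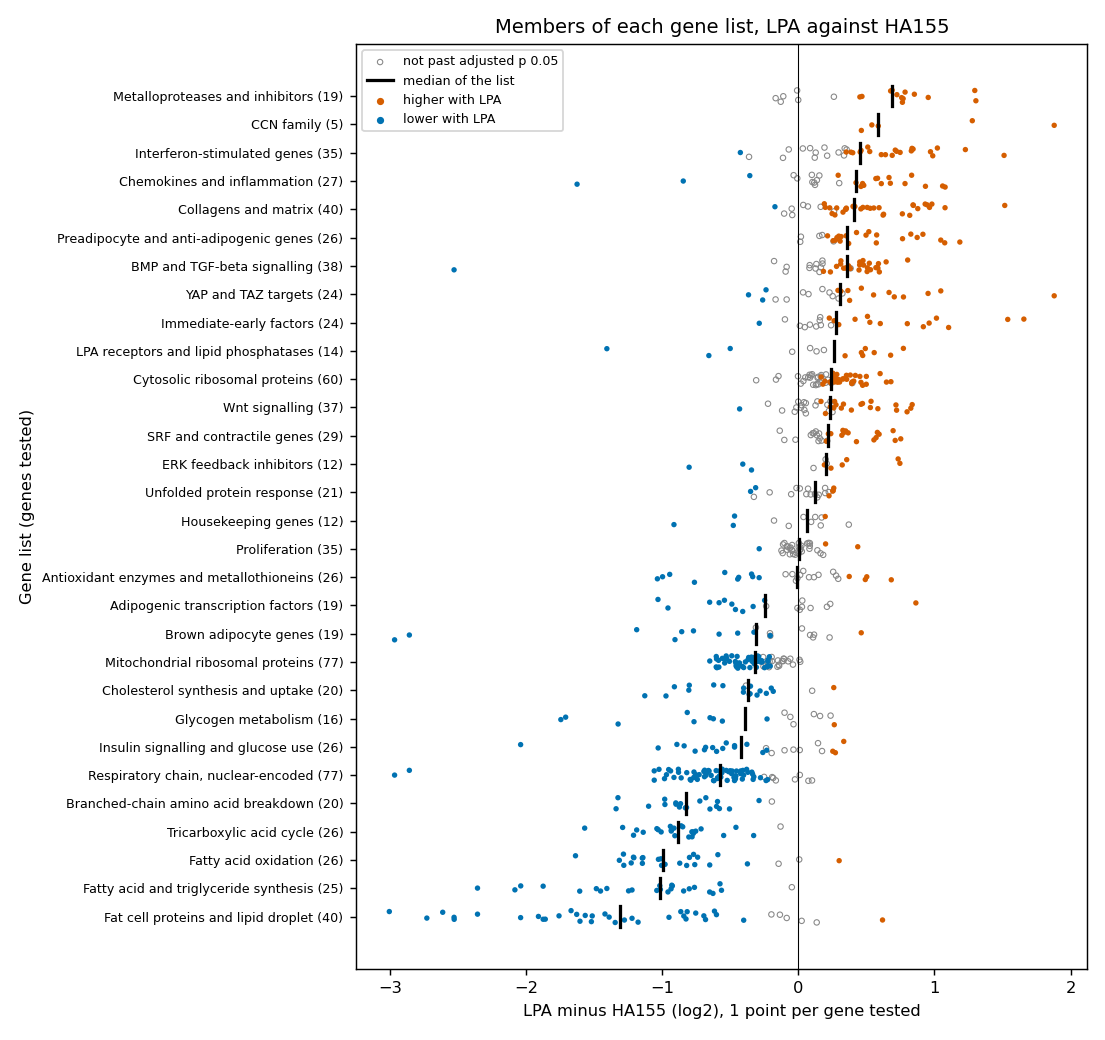
Difference between LPA and HA155 (log2, horizontal axis) for each gene tested in 30 gene lists, ordered by median (black bar); filled points are called genes, orange for higher and blue for lower with LPA, and open points are not called. The list medians run from -1.31 for fat cell proteins to 0.69 for metalloproteases and their inhibitors.

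Brown fat identity was less uniform. Of 19 brown adipocyte genes tested 10 fell and 1 rose, with a median of -0.31, and 9 others lay under the limit for testing. Ppargc1a, the coactivator that drives mitochondrial growth, measured 7.50, 7.30 and 7.31 with HA155 and 6.39, 6.55 and 6.85 with LPA, a fall of 0.77 (limma adjusted p = 0.0002501). Prdm16, a regulator of brown fat fate, measured 6.95, 6.76 and 6.83 against 6.50, 6.89 and 6.51. The arrays overlapped, and its difference of -0.21 was not called (limma adjusted p = 0.1653). Without LPA culture 8 it was -0.34 and with array weights -0.29, both called. Its limma adjusted p ran from 0.004339 to 0.4252 over the alternatives. Zic1, a factor of classical brown fat precursors, rose by 0.46, and Letmd1, a mitochondrial protein, fell by 0.91. Genes that define heat-making brown fat were dim throughout: Ucp1, the uncoupling protein, measured 5.29, 5.40 and 5.17 with HA155 and 5.26, 5.30 and 4.97 with LPA, all under the limit, as were Dio2 and Elovl3. Cidea was the exception on 1 side. This droplet protein typical of brown fat measured 6.53, 6.15 and 6.49 with HA155, but 4.78, 4.79 and 4.69 with LPA and 4.97, 5.10 and 4.67 in the controls. In the fit without the limit its difference was -1.64 (limma adjusted p = 6.588e-06), a size that is uncertain because 2 of the groups lay near background.

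The transcription factors of fat cell formation fell by smaller amounts than the genes of the mature cell. Of 19 tested 10 fell and 1 rose, with a median of -0.25. Pparg, the master regulator, measured 10.85, 10.80 and 10.84 with HA155 and 10.28, 10.45 and 10.37 with LPA, a fall of 0.46 (SE 0.0594, limma adjusted p = 0.0001666). Cebpa fell by 0.49. The lipid-synthesis regulators Nr1h3 (LXR alpha), Srebf1 and Mlxipl fell by 1.03, 0.96 and 0.65. Cebpd, which acts early in fat cell formation, rose by 0.86, from 6.08, 6.05 and 6.23 to 7.07, 7.17 and 6.70. Cebpb (0.23), Klf5 (0.21) and Ebf2 (0.03) were not called.

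Insulin signalling and glucose use had 16 of 26 genes lower and 3 higher, with a median of -0.42. Slc2a4 measured 9.96, 9.94 and 10.11 with HA155 and 8.08, 7.91 and 7.91 with LPA. Tbc1d4, which holds that transporter inside the cell until insulin acts, fell by 1.03, the insulin receptor Insr by 0.76 and the kinase Akt2 by 0.68. Akt1 and the adaptor Grb10 rose, by 0.27 and 0.33, and Irs1, Irs2 and Slc2a1 were not called. The falls are 61.5% of the list and the rises 11.5%, beside 12.4% and 13.7% of all genes tested. The share of rises is thus near that of all genes. Of 16 glycogen genes 9 fell and 1 rose. The branching enzyme Gbe1 fell by 1.74, from 9.92, 9.93 and 10.16 to 8.31, 8.19 and 8.27. Gys2, the liver and fat glycogen synthase, fell by 1.71 to 4.83, 4.89 and 4.93, under the limit for testing, so that the size is uncertain. Cholesterol synthesis had 17 of 20 genes lower and 1 higher, with a median of -0.37. Its feedback protein Insig1 fell by 1.13, from 12.82, 12.81 and 12.80 to 11.72, 11.62 and 11.69. Srebf2, the factor that drives the pathway, was the member that rose, by 0.26.

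Among the LPA receptors, the direct targets of the lipid, Lpar1 rose and Lpar6 fell. Lpar1 measured 8.40, 8.62 and 8.40 with HA155 and 9.19, 9.32 and 9.22 with LPA, a rise of 0.77 (SE 0.075, limma adjusted p = 2.14e-05). Lpar6 measured 8.54, 8.54 and 8.60 against 8.14, 7.90 and 8.13, a fall of 0.50 (limma adjusted p = 0.0004442). Lpar4 (0.09) and Lpar2 (0.13) were not called, Lpar3 lay under the limit for testing at 5.22 to 5.59, and autotaxin's own gene and Lpar5 were not analysed here. The surface phosphatases Plpp1 and Plpp3, which break LPA down, rose by 0.56 and 0.47. The receptors S1pr1, S1pr2 and S1pr3 for the related lipid sphingosine 1-phosphate rose by 0.46, 0.34 and 0.49, and the phospholipase Pla1a by 0.68. Over the whole list, 7 of 14 genes rose and 3 fell, the other 2 falls being in the acyltransferases Agpat2 and Agpat3.

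Early-response genes, the rapid transcriptional output of growth signals, rose in 14 of 24 cases and fell in 1, with a median of 0.28. Besides Egr1 and Nr4a1, Fos went from 6.20, 6.31 and 6.27 to 7.20, 7.61 and 7.28, a rise of 1.10. Egr2, Ier2, Ier3 and Zfp36 rose by 1.01, 0.96, 0.92 and 0.80. Other members of the same families were not called: Fosl1 measured 0.05, Fosb 0.08, Nr4a2 0.01, Egr3 0.16 and Myc 0.16. Atf3 fell by 0.29. The feedback inhibitors of the ERK pathway split. The receptor and pathway brakes Errfi1 and Spry2 rose by 0.75 and 0.73, Errfi1 from 10.32, 10.35 and 10.26 to 10.99, 11.06 and 11.12. The ERK phosphatases Dusp4 and Dusp6 fell by 0.80 and 0.34 and Spry4 by 0.41, and Dusp1 was not called (0.11). In all 6 of 12 rose and 3 fell.

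Targets of the actin-regulated factors rose in part. Of 29 SRF and contractile genes 16 rose and none fell, with a median of 0.22, and of 24 YAP and TAZ targets 12 rose and 3 fell, with a median of 0.30. The LIM protein Fhl2 measured 7.41, 7.43 and 7.49 with HA155 and 8.08, 8.31 and 8.19 with LPA, a rise of 0.75. The focal-adhesion protein Zyx, tropomyosin Tpm1 and actinin Actn1 rose by 0.71, 0.70 and 0.58. The smooth muscle proteins Acta2 (0.21), Cnn1 (0.09) and Myh11 (-0.14) were not called. Of the YAP and TAZ targets, tissue factor (F3) rose by 1.05, Igfbp3 by 0.95 and the receptor kinase Axl by 0.67, while Nt5e, Dlc1 and Ptpn14 fell by 0.37, 0.26 and 0.24. Those 3 falls are 12.5% of the list, near the 12.4% of all genes tested.

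All 5 members of the CCN family that were tested rose. Ccn3 measured 8.89, 9.04 and 8.86 with HA155 and 10.23, 10.20 and 10.19 with LPA, a rise of 1.28. Ccn4 and Ccn5 rose by 0.59 and 0.54. Ccn2, the family member most often read as a YAP target, rose by only 0.46, from 9.37, 9.52 and 9.44 to 9.88, 10.08 and 9.76. Its controls, at 8.81, 8.83 and 9.21, lay under both treatments. The promoter of Ccn1 is shown as that of the gene with the largest rise. It is taken from RefSeq on GRCm38.p6, covers the 160 bases before the start site, and holds 1 match to the TEAD site GGAATG, the DNA word through which YAP and TAZ act, in capitals in its reverse-complement form (chr3:145649986-145650145, minus strand).
Ccn1: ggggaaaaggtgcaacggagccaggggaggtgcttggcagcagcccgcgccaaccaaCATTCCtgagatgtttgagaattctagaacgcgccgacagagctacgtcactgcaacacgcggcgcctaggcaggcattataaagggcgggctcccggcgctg
Such a short word is common. On either strand, within 250 bases before and 50 after a start site, GGAATG occurred in 14.4% of the 10541 genes tested that had a promoter in the table and in 3 of the 10 such genes among the 15 largest rises. The CArG box, the SRF site, occurred in 1.56% of them and in 0 of those 10. Of the 1516 genes with a TEAD match 242 were called higher and 194 lower, and of the 9025 without one 1154 and 1162.

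Matrix genes rose broadly. Of 40 tested 32 rose and 1 fell, with a median of 0.41. The thrombospondins Thbs1 and Thbs2 rose by 0.96 and 1.08, Thbs2 from 10.63, 10.74 and 10.61 to 11.64, 11.80 and 11.78. Tenascin C (Tnc), the fibril-associated collagen Col14a1 and the cross-linking enzyme Lox rose by 0.95, 0.98 and 0.84. The fibrillar collagens Col1a1, Col1a2 and Col3a1 rose by less, 0.51, 0.35 and 0.28. The basement membrane chains did not follow: Col4a2 fell by 0.17 and Col4a1 measured -0.10. Metalloproteases and their inhibitors had the highest median of the 30 lists, 0.69, with 13 of 19 higher and none lower. Stromelysin (Mmp3) measured 8.44, 8.66 and 8.55 with HA155 and 9.79, 9.98 and 9.80 with LPA, a rise of 1.30 (2.47-fold). Mmp11 rose by 1.30 as well and the membrane-bound Mmp14 by 0.76. The inhibitors Timp1, Timp2 and Timp3 rose alongside the proteases, by 0.78, 0.85 and 0.77, while Mmp9 (-0.01) and Mmp19 (-0.13) were not called.

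Signalling by BMPs and TGF-beta had 25 of 38 genes higher and 1 lower, with a median of 0.35. The secreted activin antagonist Fst rose by 0.80, from 8.85, 8.95 and 8.76 to 9.66, 9.67 and 9.65. The receptors Tgfbr2 and Tgfbr3 rose by 0.65 and 0.60, and the ligands Inhba, Tgfb3 and Tgfb1 by 0.51, 0.48 and 0.31. The 1 fall was that of the receptor Acvr1c, 9.08, 9.06 and 9.08 against 6.67, 6.28 and 6.68. In the Wnt list 19 of 37 rose and 1 fell, with a median of 0.23. The largest of these rises were in secreted antagonists and modulators, Sfrp2 (0.84), Sfrp1 (0.83), Dkk3 (0.80) and Rspo2 (0.72), and in the receptor Fzd1 (0.72). No Wnt ligand but Wnt5a (0.23) was called: Wnt10b, a known brake on fat cell formation, measured 0.02 and Axin2, the usual readout of the beta-catenin branch, was not called either. Genes of precursor cells and brakes on fat cell formation rose in 21 of 26 cases and fell in none, with a median of 0.36. Among them Pdgfrb and Thy1, surface markers of precursors, rose by 0.92 and 0.87, Zfp521, a factor that holds precursors undecided, by 0.77, and Pdgfra by 0.57.

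This list also holds Dlk1, the membrane protein Pref-1 that preadipocytes shed and lose as they mature, and Meg3, a long non-coding RNA, which had its 2 largest rises. Dlk1 measured 9.34, 9.59 and 9.35 with HA155 and 10.42, 10.55 and 10.54 with LPA, a rise of 1.08 (2.11-fold, limma adjusted p = 1.957e-06). Meg3 rose by 1.19, from 9.95, 10.05 and 9.86 to 11.08, 11.11 and 11.23 (2.28-fold). They are neighbours in an imprinted domain, where Dlk1 is read from the paternal copy and Meg3 and a long row of small RNA genes from the maternal one. The domain was looked at after the values of these 2 genes had been seen, so its counts are a description. From the start of Dlk1 to the end of Dio3 (chr12:109452485-110281097 on GRCm38.p6, 828.6 kb) RefSeq lists 103 genes, of which 48 had a probe set of their own and 25 were tested. Of these, 13 rose and none fell, beside 13.7% and 12.4% of all genes tested. The 13 include Dlk1 and Meg3 themselves. Over the 25 the median difference was 0.37, with a range of -0.11 to 1.20. Against the controls, LPA had 7 of the 25 higher and none lower, beside 12.2% and 10.8% of all genes tested. HA155 against the controls had none higher and 2 lower, Dlk1 and Meg3, beside 0.607% and 0.427% of all genes.

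Among the maternal non-coding genes, the long RNA Rian rose by 0.58 and the small RNA gene DQ267102 by 0.84. Of 19 microRNA genes tested there 8 rose, and 17 had a difference above 0. Elsewhere in the genome 92 microRNA genes were tested, of which 7 rose and 1 fell, with a median of 0.02. Paternal genes gave no single picture: Dio3, which inactivates thyroid hormone, rose by 0.38, and Rtl1 measured 0.02. The array reads the precursor gene and not the finished microRNA. The mature forms from the 4 microRNA genes with the largest called rises in the domain are shown, 1 arm of each, from RefSeq on GRCm38.p6, with the seed (bases 2 to 8) in capitals.
mmu-miR-382-5p: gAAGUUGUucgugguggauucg
mmu-miR-329-3p: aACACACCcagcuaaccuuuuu
mmu-miR-679-5p: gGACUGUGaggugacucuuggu
mmu-miR-323-3p: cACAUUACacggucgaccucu
These 4 seeds all differ. In the RefSeq table that of miR-329-3p is shared with miR-362-3p and that of miR-679-5p with miR-7221-3p. Mir382 measured 5.63, 5.37 and 5.54 with HA155 and 6.75, 6.85 and 6.56 with LPA, a rise of 1.20 (limma adjusted p = 5.37e-06) from a level at the limit for testing. Mir329 rose by 0.91, from 6.44, 6.61 and 6.54 to 7.53, 7.43 and 7.35, Mir679 by 0.71 and Mir323 by 0.56. The 3 LPA cultures lay above the 3 HA155 cultures in both Mir382 and Mir329. Arrays of the 2 groups did not overlap for 38.7% of all genes tested either. Many genes of the domain are dim. Under a stricter limit, the 60th percentile, 6 rises remained to be counted. Over fits that each left out 1 culture the count ran from 11 to 17.

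**Figure D4:**
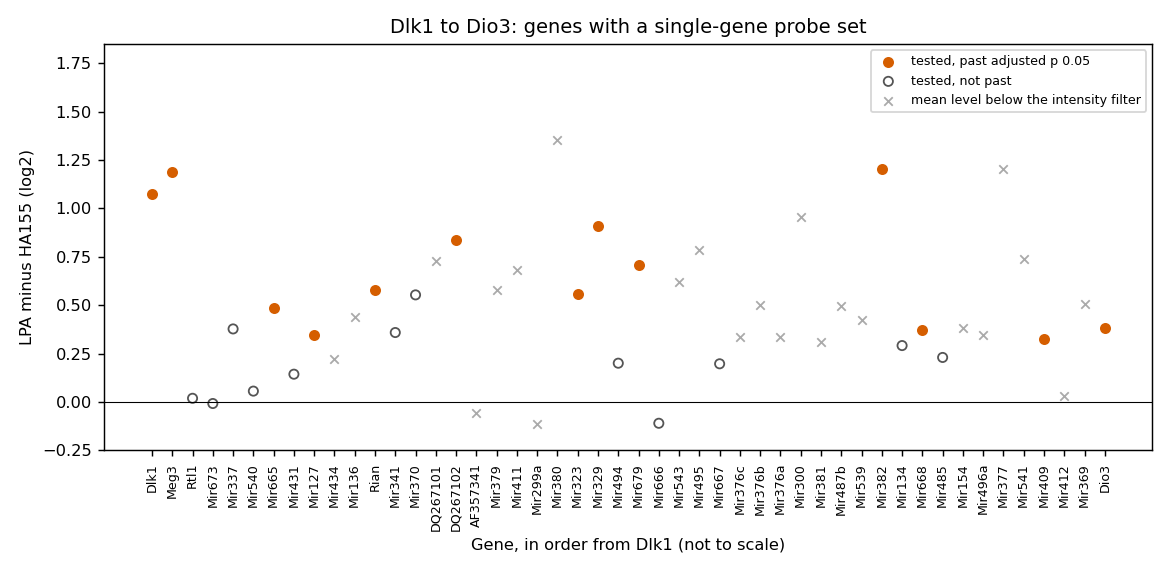
Difference between LPA and HA155 (log2, vertical axis) for the 48 genes from Dlk1 to Dio3 with a probe set of their own, in their order along the chromosome (not to scale); filled points are the 13 called genes, open points the 12 tested and not called, and crosses the 23 under the limit for testing. All filled points lie above 0.

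Interferon-stimulated genes, the antiviral programme that type I interferon switches on, stood higher with LPA than with HA155 in 21 of 35 cases and lower in 1, with a median of 0.45. Ifit1, which binds foreign RNA, measured 6.68, 6.10 and 7.22 with HA155 and 8.41, 8.19 and 7.92 with LPA, a rise of 1.51 (SE 0.226, limma adjusted p = 0.0004867). Oasl2 rose by 1.23, Ifit3 by 1.02, the membrane tether Bst2 by 0.99 and the transcription factor Irf7 by 0.97. Bst2 measured 8.22, 8.19 and 8.20 with HA155, with 9.40, 8.88 and 9.29 with LPA. Ifi27 fell by 0.43, and Irf1, B2m and Psmb9 were not called (0.03, -0.07 and -0.11). Ifit1 measured 8.28, 8.45 and 8.14 in the controls, Bst2 9.46, 9.53 and 9.00, and Irf7 7.89, 8.10 and 7.60 against 6.69, 6.79 and 6.96 with HA155. Against the controls, 16 of the 35 were lower with HA155 and none higher, beside 0.427% and 0.607% of all genes. That comparison had few calls in all, 138, and their number ran from 39 to 338 over the alternative fits. LPA against the controls had 1 of the 35 higher and 2 lower, beside 12.2% and 10.8%.

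Promoters of 3 of these genes are shown because they carry the element through which interferon acts. The 160 bases before the start site are from RefSeq on GRCm38.p6, and capitals mark the core of the interferon-stimulated response element, which is GAAA, any 2 bases and GAAA again, on either strand: Ifit1 at chr19:34640729-34640888 (plus strand), Ifit3 at chr19:34583369-34583528 (plus strand) and Bst2 at chr8:71537473-71537632 (minus strand).
Ifit1: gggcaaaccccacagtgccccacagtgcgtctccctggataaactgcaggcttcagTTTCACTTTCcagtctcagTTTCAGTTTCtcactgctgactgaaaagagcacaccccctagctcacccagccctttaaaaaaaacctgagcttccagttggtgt
Ifit3: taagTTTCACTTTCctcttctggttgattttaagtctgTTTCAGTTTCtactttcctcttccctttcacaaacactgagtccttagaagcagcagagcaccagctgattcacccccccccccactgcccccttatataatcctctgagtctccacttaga
Bst2: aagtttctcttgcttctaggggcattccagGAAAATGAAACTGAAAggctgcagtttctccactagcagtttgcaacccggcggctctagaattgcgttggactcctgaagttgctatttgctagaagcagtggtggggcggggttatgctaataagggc
Each holds 2 matches, which in Bst2 share their middle bases. Within 250 bases before and 50 after the start site, the core occurred in 14 of the 26 interferon genes with a promoter in the table (53.8%) and in 3.48% of all genes tested with one. The 14 with a match had a median difference of 0.66, with 10 higher, and the 12 without a match a median of 0.27, with 6 higher. Against the controls, the 14 had a median of -0.65 with HA155, 9 of them called lower, and of -0.03 with LPA. For the 12 these medians were -0.21, with 4 called lower, and -0.01. Of all genes tested, 0.427% were called lower with HA155 than in the controls. Over all genes tested, 24.8% of the 367 with a match were called higher with LPA than with HA155 and 11.2% lower, beside 12.8% and 12.9% of the 10174 without. These figures include the interferon genes themselves.

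Chemokines and inflammatory genes rose in 15 of 27 cases and fell in 3, with a median of 0.42. The rises are 55.6% of the list and the falls 11.1%, beside 13.7% and 12.4% of all genes tested. The share of falls is thus near that of all genes. The monocyte chemokines Ccl8 and Ccl7 rose by 1.08 and 1.06, Ccl7 from 7.73, 8.09 and 7.89 to 8.92, 9.06 and 8.91. Ccl8 started from 5.29, 5.40 and 5.49, under the limit for testing, which leaves its size uncertain. The interleukin 1 receptor antagonist Il1rn rose by 0.93, the macrophage growth factor Csf1 by 0.83 and the alarmin Il33 by 0.67. The 3 that fell were Lcn2 (-1.63) and haptoglobin (Hp, -0.85), acute-phase proteins that fat cells also secrete, and Cxcl9 (-0.36). Hp measured 12.12, 12.12 and 12.11 with HA155 and 11.30, 11.23 and 11.28 with LPA.

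Genes of cell division barely differed. Of 35 proliferation genes 2 rose and 1 fell, with a median of 0.00. Cyclin D1 (Ccnd1), which growth signals induce, rose by 0.44, from 8.72, 8.76 and 8.66 to 9.22, 9.05 and 9.19. Mki67, present in all dividing cells, measured 8.73, 8.73 and 8.75 with HA155 and 8.58, 8.84 and 8.82 with LPA and was not called (0.01). The other 2 calls, Tyms (0.20) and Cdc6 (-0.29), were lost in 9 and 10 of the 18 alternative fits. Of 26 antioxidant genes 10 fell (38.5%) and 4 rose (15.4%), beside 12.4% and 13.7% of all genes tested. The share of rises is thus near that of all genes. The mitochondrial enzymes Prdx3 and Sod2 fell by 1.00 and 0.76, while the haem oxygenase Hmox1, the metallothionein Mt2 and the secreted peroxidase Gpx3 rose by 0.49, 0.50 and 0.68. The unfolded protein response gave 4 rises and 2 falls of 21, from -0.35 to 0.26, with the chaperone Hspa5 at 0.01. Those shares, 19.0% and 9.52%, are near the 13.7% and 12.4% of all genes tested. That count was 1 without HA155 culture 4 and 3 without HA155 culture 6. Among 12 housekeeping genes Sdha, Hprt and Pgk1 fell by 0.91, 0.48 and 0.47 and Gusb rose by 0.20, while Tbp (0.04) and Actb (0.17) were not called. The falls made up 25.0% and the rise 8.33% of this short list, beside the same 12.4% and 13.7%.

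Markers of other cells that such a fraction can hold gave a mixed picture. Of 21 skeletal muscle genes tested 10 rose and none fell, with a median of 0.33. The sarcomere genes Actc1 and Myh3 rose by 0.89 and 0.85, Actc1 from 7.82, 8.09 and 8.03 to 8.80, 9.06 and 8.76, while the muscle-determining factors Myod1 (-0.05), Pax7 (-0.04) and Myog (0.07) were not called. The summed intensity of the 24 muscle markers with a probe set ran from 2610 to 2846 with HA155, 2547 to 2770 in the controls and 3414 to 4022 with LPA. The part of this shift in the rises of contractile genes was not tested. None of 9 macrophage markers was called, with a summed intensity over 16 markers of 1245 to 1407 with HA155, 1016 to 1150 in the controls and 1032 to 1339 with LPA. Without LPA culture 9 Lyz2 was called lower (-0.75). Of 9 endothelial markers Tek and Eng rose, by 0.66 and 0.57, which is 22.2% of them beside 13.7% of all genes tested. The median over these 9 was -0.02, with a range of -0.22 to 0.66. The summed intensity of 14 such markers ran from 1225 to 1274 with HA155, 1321 to 1370 in the controls and 1442 to 1533 with LPA, without overlap. Between LPA and HA155 the arrays did not overlap for 38.7% of all genes tested either. Of 7 Schwann cell markers 3 rose (42.9%, beside 13.7% of all genes tested), led by Ncam1 (0.77). The other 2, Erbb3 and Ngfr, lost their call in 5 and 11 of the alternative fits. Mcam was the only 1 of 9 smooth muscle and pericyte markers called, at -0.64, and no mesothelial or blood marker was. The summed intensity of 10 defining markers of brown fat cells ran from 16938 to 18253 with HA155, 16039 to 16893 in the controls and 8586 to 10023 with LPA. Of these 10, Ucp1, Cidea, Dio2 and Elovl3 lay under the limit for testing, so the sum rests on markers such as Adipoq, Fabp4 and Plin1, which white fat cells share. Of the 6 tested, 4 fell (66.7%) and 1 rose (16.7%), beside 12.4% and 13.7% of all genes tested.

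The controls show where along the range each gene moved. They are shared by both comparisons with the vehicle, so the values are given side by side. LPA differed from the controls for 3066 genes (23%), 1621 higher and 1445 lower, and HA155 for 138 (1.03%), 81 higher (0.607%) and 57 lower. The count of 138 was 39 to 78 when any 1 of the 3 control or 3 HA155 cultures was left out, and 232 without LPA culture 8. For many genes the controls sat with HA155. Ccn1 measured 9.45, 9.30 and 9.59 in the controls, 1.88 below LPA and 0.00 from HA155. Gpd1 measured 12.20, 12.25 and 12.14, Slc2a4 9.86, 9.99 and 9.85 and Adig 9.78, 9.76 and 9.68, all close to the HA155 cultures, with differences of HA155 from control of 0.02, 0.10 and 0.05 that were not called.

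For other genes the controls lay between the treatments, and each treatment differed from them, in opposite directions. Cox7a1 measured 8.78 in each control: HA155 raised it by 1.13 and LPA lowered it by 1.84. For Ces1d the 2 changes were 1.01 and -2.00, for Cox8b 1.01 and -1.85, for Orm1 0.86 and -1.86, for Lctl 1.13 and -1.08 and for Cidec 0.65 and -1.88. Among rises, Ace measured 8.55, 8.55 and 8.54 in the controls, 0.57 above HA155 and 0.94 below LPA. Kcne4 stood 0.66 above HA155 and 0.81 below LPA, Plac8 0.71 and 0.75, and Meg3 0.40 and 0.79. Dlk1 lay nearer to LPA, at 10.21, 10.28 and 10.26 in the controls, where HA155 lowered it by 0.82 and LPA raised it by 0.25. For Ifit1, Oasl2, Ifit3, Bst2 and Irf7 the difference of HA155 from the controls was called, at -1.62, -1.21, -1.02, -1.13 and -1.05, and that of LPA, between -0.14 and 0.02, was not.

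**Figure D5:**
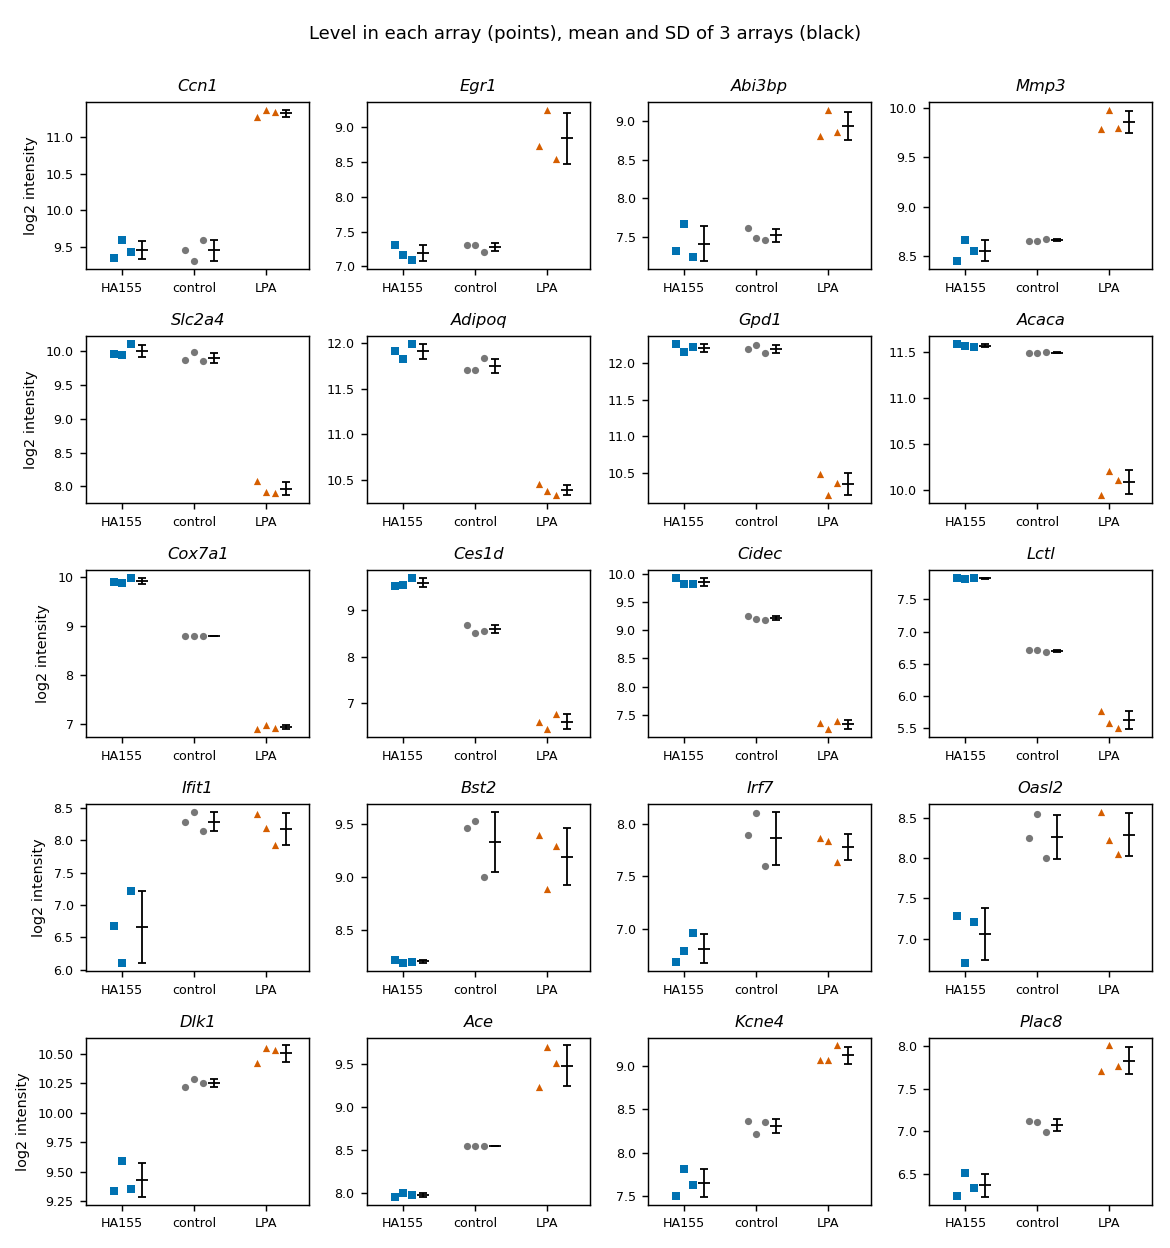
Level (log2 intensity, vertical axis, its range set for each gene) of 20 genes in the 3 HA155, 3 control and 3 LPA arrays (points in the order of the culture numbers), with the mean and SD of each group in black. Controls sit with HA155 in the upper 2 rows, between the treatments in Cox7a1, Ces1d, Cidec, Lctl, Ace, Kcne4 and Plac8, and with LPA in Ifit1, Bst2, Irf7 and Oasl2.

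Of the 3481 genes called between the treatments, 832 were called in neither comparison with the controls, 458 of them higher with LPA. The 8 of smallest p were Fggy, Ppp1r3c, Cyth3, Nt5dc1, Trim30d, Ppara, Nudt12 and Hint2. Ppara, a nuclear receptor that drives fatty acid oxidation, measured 6.92, 6.99 and 6.98 with HA155, 6.67, 6.67 and 6.33 in the controls and 6.49, 6.41 and 6.25 with LPA. Its difference was -0.58 (limma adjusted p = 0.0009281), where HA155 stood 0.41 above the controls and LPA differed from them by -0.18, neither of them called. Ppp1r3c, which targets a phosphatase to glycogen, differed by -0.56, made up of -0.22 against control for LPA and 0.34 for HA155. Trim30d, an interferon-responsive family member, differed by 0.91, from 5.41, 5.27 and 5.69 to 6.38, 6.58 and 6.14, a size that is uncertain since its HA155 mean lay under the limit for testing. That these parts missed the threshold does not show that either was absent.

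Far fewer genes, 17, were called against the controls in 1 direction with both compounds, 12 of them higher. The direct comparison then shows only what is left, and 9 of the 17 were called in it. Cxcl9, a chemokine that interferon gamma induces, measured 8.19, 8.25 and 8.17 in the controls, 7.64, 7.56 and 7.64 with HA155 and 7.20, 7.12 and 7.45 with LPA. It stood 0.59 and 0.95 below the controls, with a difference between the treatments of -0.36. The myosin Myh1 rose by 0.64 with HA155 and 0.98 with LPA, with 0.34 between them, a call lost without HA155 culture 4 or 6. Saa3, an acute-phase protein, was above the controls by 0.39 and 0.51, and Gabra3 by 0.64 and 0.60, and neither was called between the treatments (0.12 and -0.04). Reep6 stood 0.37 and 1.12 below the controls, and Kng1 0.55 and 0.94 above them.

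Genes under the limit for testing hold a few further differences. Of the 6523 genes left out, 18 had an HA155 or LPA mean above the limit and a call in a fit without it. Of these, 9 were higher with HA155 and 9 higher with LPA. The rule takes in genes through the group where they are high, so these counts are a description and no test. Besides Cidea, Nrg4, a secreted factor of brown fat, averaged 6.07 with HA155, 5.51 in the controls and 5.12 with LPA. The collagenase Mmp13 went the other way, at 4.99, 5.26 and 5.79. In that fit Nrg4 differed by -0.96 and Mmp13 by 0.79, sizes that are uncertain at such levels. Mir380, Mir300 and Mir487b of the Dlk1 to Dio3 domain were among the 9 higher with LPA.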

How the data were processed

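RNA from 9 cultures of brown adipose cells was hybridised to Affymetrix arrays, 1 culture per array and 3 per condition. The deposited values are probe set intensities from RMA, which the submitters' processing notes name without a version. RMA subtracts background, equalises the distributions of the arrays and summarises probes, so a shift shared by most genes would not show. The values lie on a linear scale, as judged from their range, and array medians ran from 70.7 to 72.8.

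Of 35432 probe sets, 21706 named 1 gene, 1605 several and 12121 none. The brightest probe set stood for each of 19858 genes. Genes whose mean lay under a limit of 5.59 (log2; an intensity of 48.2, the 40th percentile over probe sets) were left out, 6523 in all. Log2 intensities of all 9 arrays were fitted with limma 3.58.1 in R 4.3.3, 1 mean per group, with eBayes and Benjamini-Hochberg adjustment over 13335 genes at 0.05. The fit was also run on simulated data in which all groups shared 1 SD per gene. Those data do not show how the wider spread of the LPA cultures affects the calls. In 586 genes the arrays of a group held identical values, which lowers the estimated spread.

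Named were the 15 largest called rises and falls whose arrays do not overlap, the 4 smallest p in each list, the 8 smallest p called only between the treatments, the 6 smallest p called in 1 direction against the controls by both, and a preset group of genes. Members, lists and rules were chosen with earlier results of these data known. Further genes named within lists, those drawn in the plots and the Dlk1 to Dio3 domain were chosen after their values were seen. Alternatives were other filters, an offset of 16, the mean of probe sets, 2 other scalings, only the groups compared, array weights, a trended robust prior and leaving out each culture.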

Additional observations from a re-analysis of the deposited data

How the results depend on the processing

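Between LPA and HA155 the 3481 genes called ran from 2588 to 3462 over fits that each left out 1 culture and from 3030 to 3619 over the other alternatives. The 1826 higher ran from 1325 to 1908 and from 1603 to 1885, and the 1655 lower from 1263 to 1849 and from 1427 to 1869. Higher calls made up 52.5% of all calls, 47.0% when arrays were centred on their medians and 46.6% without LPA culture 9, so which direction has more calls is not settled. LPA against control gave 2293 to 3144 without 1 culture, and 2319 to 3269 otherwise. The count for HA155 against control was the least steady: 138 genes became 86 without the filter, 338 with array weights and 39 to 232 without 1 culture; the cause was not tested. Of 164 named genes called, 153 kept the call in all 18 alternatives and none changed direction. The other 11 were Vaultrc5, Tyms, Cdc6, Pdia4, Manf, Dnajb9, Edem1, Gusb, Erbb3, Ngfr and Myh1. Conversely Pcna, Lyz2, Acta2, Krt19 and Prdm16 were called in some alternative. Of 38 lists, 8 moved by over 1.5 times in some alternative; most hold few calls. No paired analysis was possible because the groups carry different subject numbers. The array files give no detection calls, so signal near background, under an intensity of 48.2, limits what can be measured.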
